A study of Mus musculus with 10 samples.

Results

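C-type lectin receptors are membrane proteins of myeloid cells with a lectin-like domain that binds sugars, lipids or protein ligands of microbes and of damaged cells. Activating members signal through the kinase Syk, either from a tyrosine motif of their own, as Dectin-1 does, or through the adaptors FcRγ and DAP12, and on to Card9, Bcl10, Malt1 and NF-kB. Inhibitory members carry a tyrosine motif that recruits the phosphatases Shp-1 and Shp-2. In the mouse most of their genes lie in clusters on chromosome 6.

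The receptors described here are 10 listed genes, Clec4a1, Clec4a2, Clec4a3, Clec4d, Clec4e, Clec4n, Clec7a, Clec12a, Clec5a and Clec2d. They were matched by symbol and Ensembl ID between the deposited tables, and all 10 were found among the 54307 gene IDs and were among the 12411 genes expressed strongly enough to be tested. Macrophages were grown from bone marrow for 7 days in medium with 20% L-929-conditioned medium, which supplies the growth factor Csf1. Of 10 RNA-seq libraries, 5 came from hWDFY3KI/KI mice, knock-ins for human WDFY3, an autophagy scaffold protein, in a study titled for its overexpression, and 5 from wild-type control mice. Both groups were males aged 6 to 8 weeks. Not given in the sources used here were the site of the knock-in and the promoter and cells that drive the human gene. The comparison asks how the transcripts of these cells differ between the genotypes. Overexpression of WDFY3 and any other difference between the genotypes, such as one around the inserted gene, cannot be told apart in it. Levels are CPM (a gene's share of a library's counts, scaled by TMM factors that correct for library composition), given for replicates 1 to 5 of a group in that order, and fold changes are fitted log2 values ± SE for knock-in over control.

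Libraries held 14617652 to 36387405 estimated counts. All 10 macrophage markers on a fixed list were tested. Together they took 30570 to 37650 CPM in the knock-in libraries and 24530 to 35470 CPM in the controls. Most of this sum was Lyz2 (18250 to 31390 CPM). Of the 10 markers, 8 had a negative log2 fold change (median -0.046), Lyz2 (0.26) and Cd68 (0.077) a positive one, and 0 passed. Adgre1 was at 824 ± 17.0 CPM in the knock-in and 953 ± 75.8 CPM in the control group, with no overlap (log2 -0.21 ± 0.059, adjusted p = 0.548 in edgeR). Mouse Wdfy3 was at 120 ± 6.19 and 110 ± 9.83 CPM (SD, n = 5 each), and the human transcript is not in the table, so the labels could not be checked with it. Knock-in 4, control 1 and control 4 stood apart from the rest. Their stromal marker score, the mean log2 CPM of 13 tested genes such as Col1a1 and Dcn, was 3.72, 4.21 and 4.16, against -1.11 to 1.71 in the other 7 libraries. All 16 listed stromal genes together had 57.0 to 491 CPM in the knock-in libraries and 114 to 808 CPM in the controls, and 0 of the 13 tested passed between the genotypes (11 negative). Their neutrophil marker score (9 tested genes) was also highest, at 2.48, 3.29 and 3.50 against 0.576 to 2.10. All 15 listed neutrophil genes together had 154 to 300 CPM in the knock-in libraries and 177 to 374 CPM in the controls, mostly from Mmp8 (48.3 to 254 CPM) and Csf3r (71.5 to 116 CPM). Granule and cytoplasmic markers were lower, with S100a8 at 2.20 to 15.2 CPM, S100a9 at 0.287 to 14.3 CPM, Ngp at 0.191 to 9.36 CPM and Ltf at 0.0478 to 4.28 CPM, and Ly6g at 0 to 0.154 CPM. All 9 tested neutrophil genes had a negative log2 fold change (median -0.88), 0 passed and 1 had an unadjusted p under 0.05. Values of the receptors are given with and without these 3 libraries. In bulk RNA, fewer cells of a type and less RNA per cell cannot be told apart.

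On GRCm38 (GENCODE M21) all 10 genes lie on chromosome 6, in 3 places. Clec4a1 (122921848 to 122934619, plus strand), Clec4a3 (122952515 to 122969875, plus), Clec4a2 (123106428 to 123143999, plus), Clec4n (123229843 to 123247021, plus), Clec4d (123262111 to 123275265, plus) and Clec4e (123281789 to 123289870, minus) form a cluster of 0.368 Mb. Clec2d (129180615 to 129186534, plus), Clec12a (129342691 to 129365303, plus) and Clec7a (129461591 to 129472779, minus) lie within 0.292 Mb of each other. These 9 genes are beyond the gene of the Rosa26 locus, Gt(ROSA)26Sor, a common landing site for transgenes, at distances of 9.84 to 16.4 Mb. Clec5a (40574894 to 40585821, minus) lies 72.5 Mb before it, so it is not part of the distal clusters. M21 gives Clec7a the biotype of a polymorphic pseudogene and the other 9 that of a protein-coding gene.

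RefSeq promoter windows, from 250 bases before to 50 after a gene's start (GRCm38), were at hand for 9 of the 10 genes. Windows of Clec7a, the most abundant transcript per length, and of Clec4d and Clec4e, neighbours on the chromosome at 367 and 3.96 CPM per kb, are shown 5′ to 3′ on the strand of the gene. Capitals mark GAGGAA, the core of sites bound by the myeloid factor PU.1, TTNCNNAA, a loose form of the C/EBP site, and TGANTCA, the AP-1 site, each on either strand, and overlapping matches run together.
Clec7a (chr6:129472730-129473029, minus strand): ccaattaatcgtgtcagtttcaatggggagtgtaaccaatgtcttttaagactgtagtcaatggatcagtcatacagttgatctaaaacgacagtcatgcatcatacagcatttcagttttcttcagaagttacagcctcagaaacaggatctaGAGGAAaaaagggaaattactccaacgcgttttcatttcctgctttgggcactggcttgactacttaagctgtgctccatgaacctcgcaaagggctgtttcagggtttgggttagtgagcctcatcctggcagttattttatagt
Clec4d (chr6:123261857-123262156, plus strand): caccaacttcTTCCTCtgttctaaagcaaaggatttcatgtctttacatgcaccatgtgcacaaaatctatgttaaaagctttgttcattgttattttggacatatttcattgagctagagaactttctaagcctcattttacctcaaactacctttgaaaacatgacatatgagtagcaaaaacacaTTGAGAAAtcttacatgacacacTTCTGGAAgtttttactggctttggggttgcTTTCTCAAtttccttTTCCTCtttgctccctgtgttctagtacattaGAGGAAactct
Clec4e (chr6:123289822-123290121, minus strand): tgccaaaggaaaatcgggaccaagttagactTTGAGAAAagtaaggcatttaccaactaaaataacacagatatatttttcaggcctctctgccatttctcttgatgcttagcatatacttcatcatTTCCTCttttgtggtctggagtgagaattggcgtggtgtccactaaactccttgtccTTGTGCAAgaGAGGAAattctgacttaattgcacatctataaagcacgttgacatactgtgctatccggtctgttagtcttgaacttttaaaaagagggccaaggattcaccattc
The window of Clec4d held 3 matches of each of the first 2 motifs, that of Clec4e 2 of each, and that of Clec7a 1 GAGGAA and no TTNCNNAA. GAGGAA was found in windows of 7 of the 9 genes and in 28.3% of all 32851 windows of the table, TTNCNNAA in 6 of 9 and 40.7%, and TGANTCA in 2 of 9 and 7.81%. TATAAA was in windows of 4 of 9 genes and in 13.6% of all windows, an NF-kB motif in 1 of 9 and 20.7%, and the E-box CACGTG in 0 of 9 and 7.15%. A receptor gene counted when any of its windows held a match, and Clec4a3 and Clec7a had 2 windows each. The percentages count single windows, so the 2 shares are not in the same unit. These matches describe letters and were not tested as binding sites.

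Receptor transcripts differed widely in level. Lengths were those of the longest protein-coding transcript, or of the longest transcript for a gene without one. Per kilobase, Clec7a averaged 492 CPM per kb over the 10 libraries, Clec4d 367, Clec12a 140, Clec4a2 40.4, Clec2d 34.9, Clec4a3 34.8, Clec4a1 33.7, Clec4n 19.7, Clec5a 13.2 and Clec4e 3.96. Clec7a, Clec4d and Clec12a stood at the 99.1, 98.7 and 96.6 percentile of all tested genes on this scale, and Clec4e at the 37.3. Neighbours in this order were compared within libraries with an exact 2-sided sign-flip test of the log2 ratio, adjusted over the 9 pairs. The order came from the same values, so these p-values are descriptive, and they take the transcript lengths as exact. Clec7a was above Clec4d by 1.36-fold (higher in 10 of 10 libraries, exact adjusted p = 0.0044), Clec4d above Clec12a by 2.60-fold, Clec12a above Clec4a2 by 3.46-fold and Clec5a above Clec4e by 3.37-fold (each in 10 of 10 libraries, with that same adjusted p; the unadjusted p of 0.00195 is the smallest that 10 libraries allow). Clec4a1 was above Clec4n by 2.00-fold (9 of 10 libraries, exact adjusted p = 0.0176). The steps from Clec4a2 to Clec2d, Clec4a3 and Clec4a1 and from Clec4n to Clec5a did not pass (exact adjusted p from 0.082 to 0.936). With merged exons as the length, Clec12a came to 63.5, Clec4a2 to 34.2 and Clec4e to 2.01 CPM per kb. The first 3 and the last 3 kept their places, and Clec2d moved above Clec4a2.

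None of the 10 receptors passed an adjusted p under 0.05 between the genotypes in edgeR's quasi-likelihood test, where 0.0806% of all tested genes did (10 genes). DESeq2 also called 0 of them, against 0.35% of the genes it adjusted, and edgeR called 0 without the 3 libraries that stood apart, against 0.304%. An unadjusted p under 0.05 was found for 1 of 10, Clec4a2, against 6.21% of all genes. For 0 of 10 did the groups not overlap, against 1.32% of all genes. The fitted log2 fold change was negative for 8 of 10, with a median of -0.16, against 51.7% of all genes and a median of -0.0046. Tested marker genes of neutrophils (9 of 9), stromal cells (11 of 13), macrophages (8 of 10) and monocytes (5 of 6) were mostly negative. Negative were 1 of 4 dendritic, 2 of 4 B, 1 of 2 mast and 1 of 1 T and NK cell markers. Without the 3 libraries that stood apart, every receptor but Clec4n (0.31) was negative. Of these, Clec4a3 (-0.0042 ± 0.090), Clec4a1 (-0.029 ± 0.11) and Clec12a (-0.042 ± 0.090) were smaller in size than their SE. The share of all genes that were negative in that fit is not given here. The part of stromal or neutrophil RNA in the receptors' signs was not tested. The labels count 5 mice per genotype, so the p-values measure the spread between mice.

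**Figure D1:**
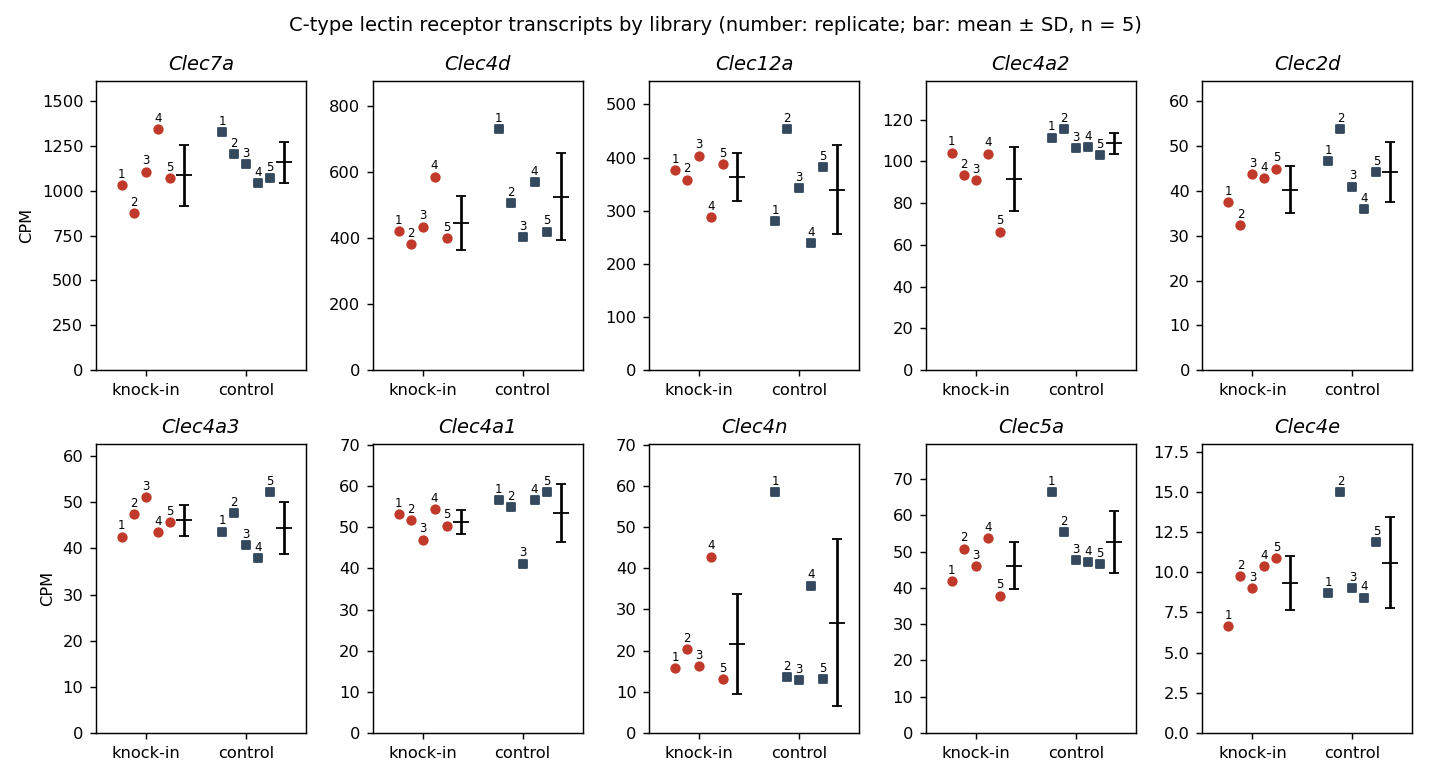
CPM of each receptor (vertical axes from 0, one scale per gene) in the 5 knock-in and 5 control libraries, with the replicate number at each point and the mean ± SD as a bar. The groups overlap for every gene, and for Clec4n knock-in 4, control 1 and control 4 lie at 42.8, 58.5 and 35.8 CPM, above the other 7 libraries.

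Clec7a encodes Dectin-1, the receptor for fungal β-glucan. It was at 1032, 875, 1106, 1342 and 1068 CPM in the knock-in libraries and at 1326, 1202, 1146, 1044 and 1070 CPM in the controls. Knock-in 4 was the highest library and knock-in 2 the lowest, and 2 of the 5 knock-in libraries lay within the range of the controls. Knock-in over control came to -0.094 ± 0.10 on the log2 scale (adjusted p = 0.899), with an interval of 2 SE from -0.30 to 0.11. It was -0.026 without knock-in 2, -0.039 without control 1, -0.19 without knock-in 4, and -0.16 ± 0.083 (adjusted p = 0.772) without the 3 libraries that stood apart. This transcript alone made up 49.1% of the receptors' summed CPM in the knock-in libraries and 49.0% in the controls.

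Clec4d encodes MCL, which binds the mycobacterial glycolipid trehalose dimycolate and pairs with Mincle. It was at 421, 383, 435, 586 and 400 CPM in the knock-in libraries and at 730, 507, 402, 571 and 420 CPM in the controls. Control 1, knock-in 4 and control 4 were the 3 highest libraries. The log2 fold change was -0.24 ± 0.17 (adjusted p = 0.856, 2 SE from -0.59 to 0.11), and without those 3 libraries it was -0.11 ± 0.085 (adjusted p = 0.884). Leaving out control 1 alone gave -0.092, and leaving out knock-in 4 alone -0.36.

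Clec4e encodes Mincle, a receptor for trehalose glycolipids and for a nuclear protein released from dying cells. It was the least abundant, with 6.63, 9.75, 8.99, 10.4 and 10.9 CPM in the knock-in libraries and 8.73, 15, 8.99, 8.42 and 11.9 CPM in the controls. Control 2 was highest and knock-in 1 lowest, and 3 of the 5 knock-in libraries lay above 3 of the 5 controls. The log2 fold change was -0.18 ± 0.18 (adjusted p = 0.891). It was -0.022 without control 2, -0.082 without knock-in 1, and -0.41 ± 0.20 (adjusted p = 0.748) without the 3 libraries that stood apart.

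Clec4n encodes Dectin-2, a receptor for fungal mannan that signals through FcRγ. It was at 15.8, 20.4, 16.2, 42.8 and 13.05 CPM in the knock-in libraries and at 58.5, 13.6, 12.8, 35.8 and 13.1 CPM in the controls. In each genotype the high values belonged to the libraries with the most stromal marker RNA, and the other 7 lay between 12.8 and 20.4 CPM. Its range of 4.58-fold between the lowest and highest library was the widest of the 10 receptors, where the others ranged 1.38- to 2.26-fold. The within-genotype SD of its log2 CPM was 0.86, against a median of 0.149 over all tested genes. The log2 fold change was -0.32 ± 0.55 (adjusted p = 0.937), with 2 SE from -1.43 to 0.79. Without the 3 libraries its sign turned, to 0.31 ± 0.13 (adjusted p = 0.669), with 13.05 to 20.4 CPM in 4 knock-in libraries and 12.8 to 13.6 CPM in 3 controls.

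Clec5a encodes MDL-1, an activating receptor that signals through DAP12. It was at 41.97, 50.8, 46.0, 53.8 and 37.9 CPM in the knock-in libraries and at 66.5, 55.5, 47.7, 47.1 and 46.6 CPM in the controls. Control 1 was highest and knock-in 5 lowest, and knock-in 2 and 4 lay within the range of the controls. Its log2 fold change was -0.19 ± 0.12 (adjusted p = 0.834). It was -0.094 without control 1, -0.18 without the 3 libraries that stood apart, and -0.056 with the neutrophil score as a covariate.

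Clec4a2 encodes DCIR, an inhibitory receptor. It was at 104, 93.3, 91.1, 104 and 66.4 CPM in the knock-in libraries and at 111, 115, 106, 107 and 103 CPM in the controls. Knock-in 2, 3 and 5 lay below every control, while knock-in 1 and 4 were just above control 5. The log2 fold change was -0.24 ± 0.10, with 2 SE from -0.45 to -0.038, an unadjusted p of 0.0348 and an adjusted p of 0.768 in edgeR. Without knock-in 5 it was -0.15, and without the 3 libraries that stood apart -0.29 (adjusted p = 0.742). Of the 31-base words in its annotated transcripts, 10.9% also occur in transcripts of other genes, with Clec4a4 sharing the most (4.96%). Clec4a4 had 22 counts in total over the 10 libraries, against 21155 for Clec4a2. Whether reads of Clec4a2 were misplaced was not tested.

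Clec12a encodes MICL, an inhibitory receptor that binds uric acid crystals. It was at 376, 359, 404, 288 and 388 CPM in the knock-in libraries and at 281, 453, 343, 240 and 382 CPM in the controls. Knock-in 4, control 1 and control 4, the highest for Clec4n and Clec4d, were the 3 lowest here. The log2 fold change was 0.094 ± 0.16 (adjusted p = 0.937), and -0.042 ± 0.090 (adjusted p = 0.974) without these 3 libraries.

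**Figure D2:**
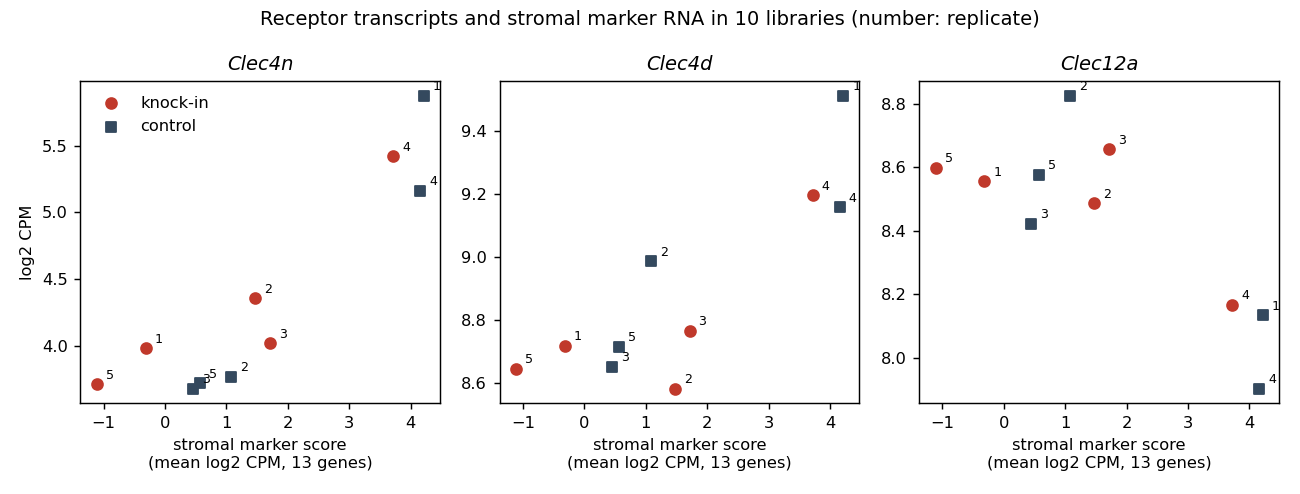
Log2 CPM of Clec4n, Clec4d and Clec12a (vertical) against the stromal marker score, the mean log2 CPM of 13 tested stromal genes (horizontal), in 5 knock-in (circles) and 5 control libraries (squares), numbered by replicate. The 3 libraries with scores of 3.72 to 4.21 are the highest for Clec4n and Clec4d and the lowest for Clec12a.

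Whether stromal or neutrophil RNA has a part in these levels was not tested. The stromal scores fall into 2 separate sets of libraries, and no correlation is given with either score. Neutrophil scores of the same sets lie closer together, at 2.48 and above against 2.10 and below. With the stromal score as a covariate the log2 fold change of Clec4n was 0.26 ± 0.22, and with the neutrophil score it was 0.69 ± 0.27, and neither passed the test (adjusted p = 0.916 and 0.601).

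Clec4a1 and Clec4a3 encode relatives of DCIR, also called DCIR4 and DCIR3, and varied least. Clec4a1 was at 53.2, 51.7, 47.0, 54.5 and 50.4 CPM in the knock-in libraries and at 56.6, 54.9, 41.2, 56.6 and 58.6 CPM in the controls. Control 3 stood below the other 9 libraries, and the fold change was -0.063 ± 0.086 on the log2 scale (adjusted p = 0.920). Without control 3 it was -0.14 ± 0.054 (unadjusted p = 0.0213, adjusted p = 0.597), and without the 3 libraries that stood apart -0.029. Leaving out knock-in 3, control 1, control 4 or control 5 gave -0.029 to -0.041. Clec4a3 was at 42.6, 47.4, 51.2, 43.5 and 45.7 CPM in the knock-in libraries and at 43.6, 47.7, 40.7, 37.97 and 52.3 CPM in the controls. Both groups spanned much the same range, with a log2 fold change of 0.054 ± 0.085 (adjusted p = 0.934, 2 SE from -0.12 to 0.22). It was -0.0042 without the 3 libraries that stood apart, and ranged from 0.0026 without control 4 to 0.12 without control 5.

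Clec2d encodes Clr-b, a ligand of an inhibitory receptor on natural killer cells. It was at 37.4, 32.4, 43.8, 42.9 and 45.0 CPM in the knock-in libraries and at 46.6, 53.7, 40.9, 35.8 and 44.1 CPM in the controls. Knock-in 2 was lowest and control 2 highest, and the log2 fold change was -0.13 ± 0.11 (adjusted p = 0.879). It was -0.065 without knock-in 2, -0.051 without control 2, -0.20 without control 4, and -0.22 ± 0.13 (adjusted p = 0.835) without the 3 libraries that stood apart. Of its 31-base words, 11.8% occur in other genes, most of all in Clec2i (5.75%), so its reads may be shared. For the other 8 receptors apart from Clec4a2 that share was at most 2.19%.

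**Figure D3:**
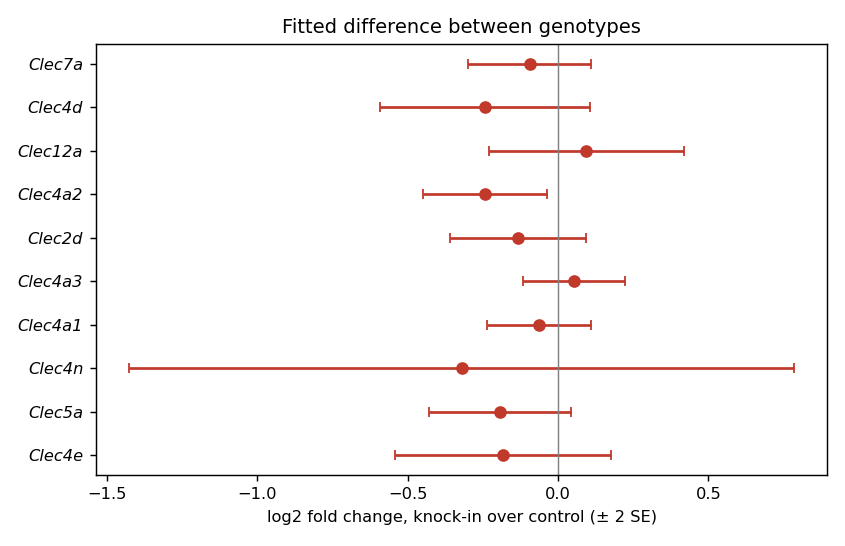
Fitted log2 fold change of knock-in over control (horizontal, bars of 2 SE) for the 10 receptors, ordered by level per kilobase. Only the bar of Clec4a2 (-0.45 to -0.038) leaves out 0, and that of Clec4n (-1.43 to 0.79) is the widest.

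Adaptors and signalling genes downstream of the receptors were all tested (28 of 28), and 0 passed in either direction, with 18 positive and 10 negative log2 fold changes and a median of 0.017. An unadjusted p under 0.05 was also found for 0 of them in edgeR, and DESeq2 called 0. The FcRγ gene Fcer1g was at 840 ± 70.8 CPM in the knock-in and 826 ± 77.7 CPM in the control macrophages (log2 0.024 ± 0.077, adjusted p = 0.974), and the DAP12 gene Tyrobp at 1047 ± 19.6 and 1037 ± 80.8 CPM (log2 0.015 ± 0.058, adjusted p = 0.981). Syk, the kinase the activating receptors share, had the smallest p, at 382 ± 22.4 CPM in the knock-in and 352 ± 17.5 CPM in the control group (log2 0.12 ± 0.057, adjusted p = 0.799). Next was Nfatc1, a calcium-regulated transcription factor, at 44.4 ± 2.26 and 40.9 ± 4.88 CPM (log2 0.12 ± 0.078, adjusted p = 0.844). Of 16 cytokines, chemokines and other genes that the receptors are known to induce, 8 were tested and 0 passed in edgeR, 0 of them with an unadjusted p under 0.05.

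Among 52 further genes with a C-type lectin domain, 17 were expressed strongly enough to be tested, and 0 passed in edgeR, with 9 positive and 8 negative. The highest in CPM were Cd93, a receptor of endothelial and myeloid cells, at 466 ± 45.1 CPM in the knock-in and 427 ± 17.0 CPM in the control group (log2 0.13 ± 0.067, adjusted p = 0.811), and Cd72, a lectin-like inhibitory receptor known from B cells, at 328 ± 54.3 and 316 ± 52.0 CPM (log2 0.056 ± 0.13, adjusted p = 0.958). An unadjusted p under 0.05 was found for 2, Cd209c and Clec1a. Cd209c, of the DC-SIGN family, had 48, 45, 53, 47 and 51 counts in the knock-in libraries and 16, 5, 0, 17 and 10 in the controls, which is 2.31 to 2.93 CPM against 0 to 0.784 CPM. The groups did not overlap, and the log2 fold change was 2.52 ± 0.45 (adjusted p = 0.111 in edgeR). DESeq2 called it (adjusted p = 8.05e-08), as did limma-trend on the deposited log2 values (adjusted p = 0.00496). It lies on chromosome 8, away from the receptor clusters. Of its 31-base words, 24.7% occur in other genes, most of all in Olfr1372-ps1 (10.8%). Olfr1372-ps1, looked up because of these shared words, had a log2 fold change in the same direction, at 6.60 ± 0.748 CPM in the knock-in and 1.67 ± 1.04 CPM in the control group (log2 1.99 ± 0.34, adjusted p = 0.101, no overlap). Whether reads were misplaced between the 2 genes was not tested. Clec1a, which lies between Clec12a and Clec7a, was at 1.56 ± 0.414 CPM in the knock-in and 0.914 ± 0.278 CPM in the control group (log2 0.77 ± 0.28, adjusted p = 0.700).

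The clusters were set beside the rest of distal chromosome 6. Of 230 tested genes beyond Gt(ROSA)26Sor, 5 passed in edgeR, Setd5, Plxnd1, Tmcc1, Rassf4 and Apobec1, against 0.0806% of all tested genes (10 genes). None of the 5 is a receptor described here. Gt(ROSA)26Sor itself also passed, at 0.0489 ± 0.0483 CPM in the knock-in and 3.58 ± 1.72 CPM in the control group (log2 -5.98 ± 0.56, adjusted p = 4.75e-04). The cause was not tested. Apobec1, an mRNA-editing cytidine deaminase, was at 932 ± 154 CPM in the knock-in and 291 ± 9.81 CPM in the control macrophages (log2 1.68 ± 0.11, adjusted p = 1.28e-05). It ends 319 kb before Clec4a1, with 6 tested genes between them, of which 0 passed. Among these 6, Dppa3, a germ cell and early embryo gene named here after its values were seen, was at 0.312 ± 0.240 CPM in the knock-in and 1.53 ± 0.649 CPM in the control group, with no overlap (log2 -2.32 ± 0.44, adjusted p = 0.149). Necap1, an adaptor of clathrin-coated vesicles and the nearest tested gene before the Clec4 cluster, had a log2 fold change of 0.13 ± 0.078 (adjusted p = 0.831), and Vmn2r24, the nearest after it, one of 0.20 ± 0.13 (adjusted p = 0.842). Around the other cluster, BC064078 was at 0.37 ± 0.18 (adjusted p = 0.799) and Gabarapl1, of the autophagy family of Atg8 proteins, at -0.031 ± 0.081 (adjusted p = 0.963). Clec5a lies between Ssbp1 (-0.15 ± 0.081, adjusted p = 0.812) and Gstk1 (0.17 ± 0.15, adjusted p = 0.885).

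**Figure D4:**
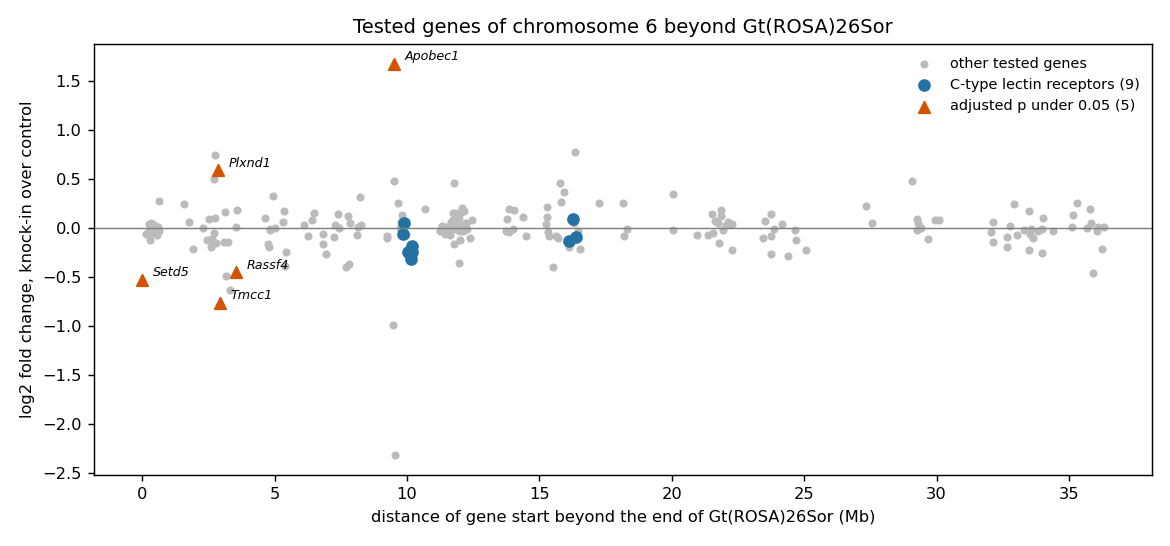
Log2 fold change of knock-in over control (vertical) for the 230 tested genes of chromosome 6 that start beyond Gt(ROSA)26Sor, by distance in Mb from its end (horizontal). The 9 receptors (blue) lie at 9.84 to 16.4 Mb between -0.32 and 0.094, while Apobec1, 319 kb before Clec4a1, is at 1.68.

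Genes whose pattern was most like that of a receptor were named by Pearson's r of log2 CPM centred within genotype over the 10 libraries, among genes of at least 1 CPM. These are the highest of many values of r over libraries that share depth and marker RNA differences, and are given as a description, with Spearman's rho from 0.806 to 0.988. For Clec4n they were the chemokine receptor gene Ccr1 (r = 0.978) and the actin-binding caldesmon gene Cald1 (0.977). For Clec4d they were Emc7 (0.988), a subunit of an endoplasmic reticulum insertase, and Ppp1cc (0.976), a phosphatase subunit. The closest to Clec12a were Rad54l (0.976), of DNA repair, and Fam13b (0.965), and the closest to Clec4a3 were Hmmr (0.949) and the condensin gene Ncapd3 (0.948), both of mitosis. Clec7a was most like Nudt7 (0.955) and 2310057M21Rik (0.940), Clec4a2 like Crlf3 (0.961) and Rtl5 (0.953), and Clec4a1 like Lonp2 (0.960) and Tnks2 (0.940). For Clec5a the values were 0.974 for Asf1a and 0.955 for Atpif1, for Clec2d 0.949 for Zfp995 and 0.935 for Cep63, and for Clec4e 0.925 for Zc3h8 and 0.916 for Dnajc27.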

How the data were processed

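Stranded poly(A)+ libraries of 10 mice were sequenced, per the labels' protocols. One deposited table gives estimated counts per gene (Salmon's, by its name). For tools the submitters' processing notes list Salmon 1.6.0, MultiQC and DESeq2 1.34.0, and for builds GRCm39 and mm10, with no roles. Not given in the sources used here: Salmon's settings and its annotation. The other deposited table gives the authors' regularized-log (log2) values, by its name. Estimated counts were rounded and tested with edgeR 4.0.16 (R 4.3.3): TMM factors, filterByExpr defaults (minimum count 10, minimum total 15), robust dispersion and the quasi-likelihood F-test over all 10 libraries, with Benjamini-Hochberg adjustment over the 12411 tested genes and a threshold of 0.05. The SE is the size of the log2 fold change divided by the square root of F, and log2 CPM used a prior count of 2. The test was first tested on simulated data. It recovered 22% of 50 genes changed 1.25-fold, 68% of 50 changed 1.5-fold, 90% at 2-fold and 98% at 4-fold. Among its 145 calls 6 were false. Symbols were found for 51510 of 54307 IDs and GENCODE M21 positions for 51482, by gene ID. Levels per kilobase use the longest protein-coding transcript, or the longest transcript of any kind for a gene without one. Word sharing used 31-base words on both strands of M21 transcripts.

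The receptors, the gene lists and the alternatives were chosen with earlier results of these data known. The rule for named genes was all 10 receptors, the called or else the 2 genes with the smallest p and the 2 most abundant of the signalling and further lectin lists, the called genes beyond Rosa26, the nearest tested gene on each side of a cluster, and the 2 most alike genes per receptor. Wdfy3 and the marker genes were named besides. Of the other marker lists, dendritic cell (4 of 10 tested), monocyte (6 of 6), B cell (4 of 6), T and NK cell (1 of 7) and mast cell markers (2 of 6) had 0 genes past the threshold. No library looked like a copy of another (chi-square between libraries of a group, per gene, 8.86 to 54.65). Replicate numbers are not said to pair mice. The alternatives used DESeq2 1.42.0, limma 3.58.1 (voom, and limma-trend on the deposited log2 values), RLE factors, other filters and dispersion, the replicate number as a block, marker scores as covariates, and fewer libraries.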

Additional observations from a re-analysis of the deposited data

Results flagged for a closer look

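Control 3 was far below the other controls for Clec4a1, with 41.2 CPM where the next was at 54.9 CPM. Knock-in 4 was far above the other knock-in libraries for Clec4n, with 42.8 CPM against 20.4 CPM in the next, and for Clec4d, with 586 CPM against 435 CPM in the next. The gap to the nearest library was 78.4%, 75.2% and 74.4% of the group's range, above Dixon's critical value for 5 samples. Of 20 groups looked at, 3 stood out in this way, where chance gives about 1 in 20 if groups are independent. These groups share libraries, and knock-in 4 was flagged for both Clec4n and Clec4d, so the 3 are not separate events.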

How the results depend on the processing

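In all 21 alternatives 0 of the 10 receptors and 0 of the 28 signalling genes passed the test. The count over all genes was 49 in DESeq2 and 38 without knock-in 4, control 1 and control 4, which had most stromal RNA, where 0.304% of the genes passed, against 10. It ranged from 6 to 23 when 1 library was left out, with 6 without knock-in 1, 2 or 3 or control 2, and 23 without knock-in 4. Of the further lectin genes 1, Cd209c, passed in DESeq2 (1), in limma-trend on the deposited values (1) and without control 3, and 0 to 1 over the fits without 1 library. Its adjusted p ran from 8.05e-08 to 0.420.

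Of 210 receptor values under alternatives, 199 kept direction and side of the threshold, 11 reversed and 0 passed newly. Without the 3 libraries, Clec4n was at 0.31, Clec4a3 at -0.0042 and Clec12a at -0.042. With the neutrophil score Clec4n was at 0.69, Clec4d at 0.024, Clec4a3 at -0.033 and Clec12a at -0.16, and with the stromal score Clec4n was at 0.26 and Clec12a at -0.0041. Leaving out 1 library gave -0.73 to 0.17 for Clec4n (positive without control 1) and -0.0067 to 0.22 for Clec12a (negative without control 4). The cause was not tested.

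With the replicate number as a block 12 genes and 0 receptors passed. Deviations of same-numbered libraries correlated at -0.20 to 0.51, so the numbers were not taken to pair the samples, and 4 of 10 libraries correlated best with their own number. The pairing changed no call of a receptor. RLE factors moved the median of all genes by 6.61e-04 (log2). Depth limits Cd209c and Clec1a, with 0 to 53 and 9 to 42 counts per library, and among the receptors Clec4e, with 136 to 349.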
